A study of Homo sapiens with 61 samples.

Results

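The genes described here are the protein-coding zinc finger genes of the long arm of chromosome 19, written as ZNF and a number. Members were chosen by symbol and by position, as genes whose start lies above position 26000000 of chromosome 19 in hg38, which gave 163 genes of 19970 protein-coding genes. The family was picked out because earlier results of these libraries had shown broad H3K4me3 there, so the levels below are a description and carry no test. H3K4me3 is a histone mark found at the start of active genes, and it was read here as bases under called peaks. Of the 163 members, 152 lay in 6 sub-clusters, which are runs of at least 5 members with neighbours within 500 kb, and 11 stood alone.

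The cells were U2OS, a human osteosarcoma line of mesenchymal origin, either wild-type (WT) or lacking the histone methyltransferase ASH1L (ASH1L–/–). The ASH1L–/– cells were made with CRISPR/Cas9 and grown from individual colonies, so a difference between genotypes may belong to a clone. Cells of both genotypes were irradiated with UV-C light at 20 J/m2 and collected 1 h or 3 h later, or left without UV. H3K4me3 had 3 libraries in each of the 6 groups (18 in all). XPC, the factor that recognises UV lesions for nucleotide excision repair, had 19 libraries, 4 of them from unirradiated WT cells. Peak lists hold no measure of the deleted exons, so the knockout could not be checked here.

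Most zinc finger genes of this arm code for a KRAB domain followed by an array of DNA-binding C2H2 zinc fingers. The KRAB domain recruits TRIM28 (KAP1), which brings the methyltransferase SETDB1 and its product H3K9me3 to the bound DNA, and many of these proteins bind transposable elements. The genes arose by tandem duplication, lie side by side in clusters, and carry most of their finger array in the last exon.

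The 6 sub-clusters are labelled here A to F from the centromere outwards (hg38). Sub-cluster A (chr19:34677639-34964229) held 5 members from ZNF302 to ZNF792, and B (chr19:36182276-37817300) held 26 from ZNF565 to ZNF573. Sub-cluster C (chr19:43525497-44500524) held 23 members from ZNF575 to ZNF180, and D (chr19:51571283-53580269) held 39 from ZNF175 to ZNF331. Sub-cluster E (chr19:55476617-56671783) held 16 members from ZNF628 to ZNF835, and F (chr19:57191500-58481230) held 43 from ZNF264 to ZNF446. Member genes were 3.12 to 488.7 kb long with a median of 23.2 kb. Promoter windows of 30 members overlapped the promoter window of another gene, and for 10 of these that gene was itself a member.

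The promoters of 5 members whose H3K4me3 differed most are printed here as the 250 bases before and 50 bases after the start site (RefSeq, GRCh38.p14), with each CG in capitals, because CG-rich promoters are the usual seat of H3K4me3. ZNF606 (chr19:58002771-58003070, minus strand) had the longest covered promoter of the family, ZNF404 (chr19:43883915-43884214, minus) the largest rise after UV, and ZNF132 (chr19:58440104-58440403, minus) opposite changes in WT and ASH1L–/– cells. ZNF541 (chr19:47573099-47573398, minus) had no promoter peak in any library, and ZNF587B (chr19:57830049-57830348, plus) had the shortest covered promoter among those with a peak.
ZNF606: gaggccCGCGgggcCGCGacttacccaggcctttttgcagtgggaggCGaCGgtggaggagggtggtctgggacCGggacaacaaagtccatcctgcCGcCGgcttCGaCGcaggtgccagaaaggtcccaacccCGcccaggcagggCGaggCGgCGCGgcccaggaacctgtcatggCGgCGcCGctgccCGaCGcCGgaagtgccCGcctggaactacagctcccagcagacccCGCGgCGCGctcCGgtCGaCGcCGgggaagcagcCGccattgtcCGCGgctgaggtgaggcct
ZNF404: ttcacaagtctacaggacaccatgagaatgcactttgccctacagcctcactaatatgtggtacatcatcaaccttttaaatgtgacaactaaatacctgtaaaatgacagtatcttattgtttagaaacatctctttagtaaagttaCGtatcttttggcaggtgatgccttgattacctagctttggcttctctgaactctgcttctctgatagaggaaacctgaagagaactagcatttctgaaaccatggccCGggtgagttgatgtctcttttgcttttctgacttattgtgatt
ZNF132: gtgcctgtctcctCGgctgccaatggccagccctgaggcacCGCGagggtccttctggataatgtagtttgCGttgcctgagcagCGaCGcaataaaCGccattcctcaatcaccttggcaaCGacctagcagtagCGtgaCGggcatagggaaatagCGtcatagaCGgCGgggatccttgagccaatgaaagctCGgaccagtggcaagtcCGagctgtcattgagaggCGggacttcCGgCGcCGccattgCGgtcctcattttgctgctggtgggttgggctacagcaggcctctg
ZNF541: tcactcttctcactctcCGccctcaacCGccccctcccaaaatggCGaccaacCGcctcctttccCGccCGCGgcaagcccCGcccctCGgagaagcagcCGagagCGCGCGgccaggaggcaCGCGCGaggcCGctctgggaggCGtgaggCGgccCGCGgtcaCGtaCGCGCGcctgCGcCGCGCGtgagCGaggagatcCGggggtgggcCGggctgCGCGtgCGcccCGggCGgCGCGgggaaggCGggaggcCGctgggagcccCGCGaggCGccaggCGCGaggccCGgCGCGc
ZNF587B: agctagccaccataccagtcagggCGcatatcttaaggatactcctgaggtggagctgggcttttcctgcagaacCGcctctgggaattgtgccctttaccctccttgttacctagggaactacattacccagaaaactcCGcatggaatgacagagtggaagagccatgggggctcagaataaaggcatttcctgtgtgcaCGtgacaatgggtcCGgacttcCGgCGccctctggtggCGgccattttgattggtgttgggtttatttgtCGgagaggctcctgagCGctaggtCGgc

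These 5 sequences held 34, 2, 20, 49 and 11 CG, in the order printed. The uncovered ZNF541 promoter thus had the most CG of the family, and the ZNF404 promoter the fewest. A promoter sequence was found for 143 members, with a median of 23 CG (range 2 to 49) against 22 over the 15316 genes in the table. At least 1 CG was present in 98.1% of all these promoters. Spearman's rho between the number of CG and the covered promoter length was 0.053 across members, which are neighbouring genes and not independent points.

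Nearly all members carried H3K4me3 at their start. A peak lay within 2 kb of the start site in all 18 libraries for 151 members (92.6%), compared with 66.8% of all protein-coding genes. The same share was 63.9% for 83 ZNF genes on 19p, 89.3% for 262 ZNF genes on other chromosomes, and 57.0% for 79 other genes interspersed within the sub-clusters. A further 10 members had a promoter peak in 6 to 17 libraries, namely ZNF382, ZNF575, ZNF233, ZNF229, ZNF880, ZNF534, ZNF154, ZNF587B, ZNF418 and ZNF132. ZNF536, linked to neuronal differentiation, and ZNF541, a meiotic gene, had none at the start site used. The highest summit lay downstream of the start site in 140 of 161 members, at a median of 301 bp, and its fold enrichment over input had a median of 11.6, from 2.52 at ZNF382 to 20.6 at ZNF175.

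The median covered length of the 4 kb promoter window was longer in members than in genes at large. Windows without a peak counted as 0, and 4675 of all genes but 2 members had no promoter peak in any library. The difference in length thus includes the difference in presence. Single promoter peaks without UV had median lengths of 1539 bp in members and 1763 bp over all genes in WT (group means). In ASH1L–/– cells these were 1589 and 1650 bp. The median over members without UV was 2.28 ± 0.219 kb (SD, n = 3 libraries) for WT and 2.39 ± 0.104 kb for ASH1L–/– cells, against 1.85 and 1.89 kb over all genes. ZNF genes of other chromosomes had 2.37 and 2.47 kb, longer than the members, and those of 19p 1.5 and 1.47 kb. ZNF606 was covered over 3.02 to 4.0 kb of its 4 kb window in the 18 libraries. It was followed by ZNF667, ZNF529, ZNF614 and ZNF581 with means of 3.88, 3.86, 3.83 and 3.78 kb. At the other end stood ZNF587B, ZNF233, ZNF534, ZNF880 and ZNF382 with means of 0.123, 0.508, 0.570, 0.619 and 0.662 kb.

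H3K4me3 of these genes did not stop at the promoter. A gene body began where the promoter window ended and ran to the end of the gene, leaving out promoter windows of other genes, and 159 members had such a body. Summed over these, peaks covered 19.8, 23 and 33.5% of body bases in the 3 unirradiated WT libraries. In unirradiated ASH1L–/– cells the values were 26.1, 22.4 and 30.5%, which overlapped those of WT. Over all 17678 gene bodies the group means were 2.07% in WT and 2.16% in ASH1L–/– cells, so the family stood about an order of magnitude above genes at large.

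The 19p ZNF genes had 8.74% and 7.89% of their bodies covered in unirradiated WT and ASH1L–/– cells, and ZNF genes of other chromosomes 8.75% and 8.76%. Interspersed genes of the sub-clusters had 14.3% and 15.4%. With peaks of at least 5-fold enrichment alone, the 19q members had 8.83% and 7.64% covered and all genes 0.756% and 0.717%. The body peaks were weak and short. Their median fold enrichment was 2.96 to 3.05 in the group means of members and 2.93 to 3.09 over all genes, whereas promoter peaks of members had group means of 5.67 to 12.9.

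After irradiation the covered share of the member bodies was higher in the groups of both genotypes. In WT it was 34.3, 37.7 and 41.4% at 1 h and 44, 32.3 and 43.6% at 3 h, and only the WT 3 h replicate 2 library lay below the highest unirradiated library. The ASH1L–/– values were 34.1, 42.2 and 41.6% at 1 h and 53.0, 40.6 and 43.2% at 3 h, all above the unirradiated libraries of that genotype. For 19p the 3 h means were 17.2% in WT and 17.1% in ASH1L–/– cells, and over all genes they were 3.38% and 2.72%.

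**Figure D1:**
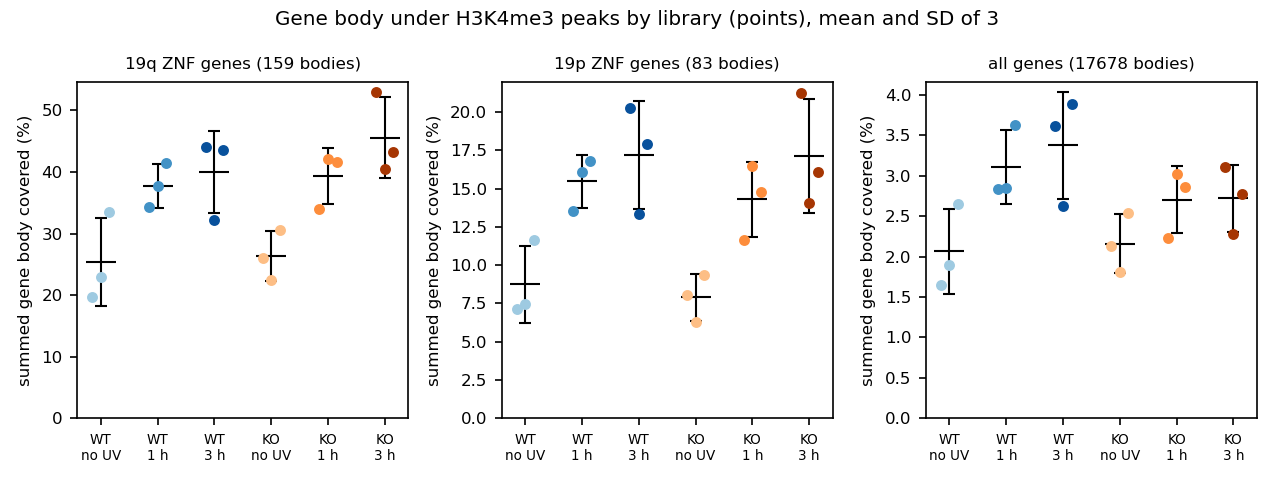
Share of gene body bases under H3K4me3 peaks (%), summed over 159 ZNF genes on 19q, 83 on 19p and 17678 genes in all; points are libraries, bars the mean and SD of 3, KO is ASH1L–/–, and the y axes differ between panels. Members lay between 19.8 and 53.0%, with lower values in the 6 unirradiated libraries than in most irradiated ones.

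These comparisons were made on the lists as deposited. Peaks of WT libraries covered 80.1 ± 11.9 Mb of the genome without UV, 109 ± 13.9 Mb 1 h after it and 119 ± 18.9 Mb after 3 h, and those of ASH1L–/– libraries 82.3 ± 8.8, 94.2 ± 13.7 and 95.5 ± 12.5 Mb (SD, n = 3). Peak lists hold no read depth, and the part of library depth in these totals was not tested. The counts of members that passed, and most of the genes described singly, are therefore also given with covered length scaled to an equal genome-wide total. This scaling moved the median UV change over all tested promoters from 0.203 to −0.615 kb in WT and from 0.174 to −0.14 kb in ASH1L–/– cells. For gene bodies it moved the median from 0.429 to 0.0873 kb in WT and from 0.262 to 0.143 kb in ASH1L–/– cells.

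Along the arm the broad bodies came in blocks. In unirradiated WT cells the bodies of sub-clusters A, B, C, D, E and F were covered over 45.3, 35.7, 25.5, 21.2, 34.6 and 26.7%, and the members standing alone over 8.75%. The corresponding means in unirradiated ASH1L–/– cells were 50.3, 27.5, 31.2, 24.1, 38.3 and 33.2%, so that B was the single sub-cluster with a lower mean than in WT. The libraries of B overlapped, at 27.5, 31.5 and 48.0% in WT and 27.8, 22.9 and 31.9% in ASH1L–/– cells. At 3 h the means of A to F were 59.6, 55.4, 33.3, 37.3, 51.8 and 42.1% in WT and 64.7, 56.5, 43.7, 47.2, 52.1 and 53.2% in ASH1L–/– cells. Coverage between genes was higher at 3 h as well. Outside genes, B was covered over 13.6% without UV and 27.1% at 3 h in WT, and 10.9% and 22% in ASH1L–/– cells, and F over 9.86% and 22.6% in WT.

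**Figure D2:**
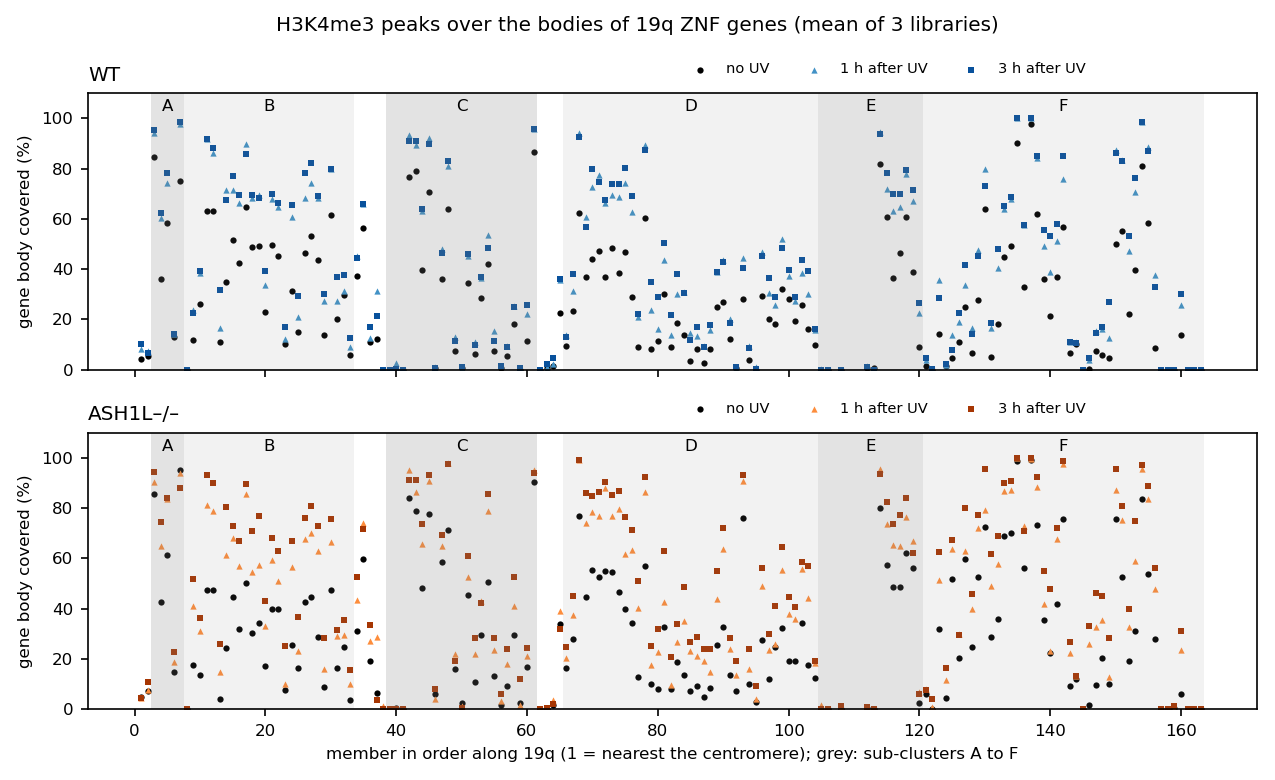
Share of each gene body under H3K4me3 peaks (%, mean of 3 libraries) against the order of the members along 19q, for WT (top) and ASH1L–/– cells (bottom) without UV and at 1 h and 3 h, with sub-clusters A to F in grey. Values of 50% and over occur in each sub-cluster, next to members at or near 0 in B to F.

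In WT, 29 bodies were covered over more than 50% on average without UV, 58 at 1 h and 60 at 3 h. The corresponding numbers for ASH1L–/– cells were 38, 68 and 79. As shares of the 159 members these ranged from 18.2% to 49.7%, against 1.71% to 2.92% of all gene bodies. ZNF134 was covered over 99.4% as the mean of all 18 libraries, ZNF416 over 98.1%, ZNF180 over 93.1%, ZNF274 over 92.4% and ZNF792 over 91.4%. ZNF274 binds the 3′ ends of zinc finger genes and recruits SETDB1 there. The lowest bodies with any peak were those of ZNF444, ZNF526, ZNF628, ZNF865 and ZNF584, at 0.111 to 0.339%, and 11 bodies had no peak in any library. Across members the covered share of the body had a Spearman's rho of 0.037 with gene length, 0.17 with the number of exons and 0.53 with the covered promoter length (159 genes sharing the same libraries, given as a description).

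Averaged over members, coverage dipped past the promoter and was higher again further in, where bins hold fewer genes (158 from 3 kb, 102 from 16 kb). The first 1 kb after the start site was covered over 88.9% of its bases in unirradiated WT cells, averaged over members, and over 93.2% at 3 h. From 3 to 4 kb the means were 17.1% and 31.1% in WT and 23.8% and 40.6% in ASH1L–/– cells. From 16 to 17 kb, in the 102 members that reach so far, they were 35.7% and 53.9% in WT and 35.2% and 59.6% in ASH1L–/– cells. ZNF genes of 19p had the same course, with 61.3% in the first 1 kb, 3.01% from 3 kb and 15.55% from 16 kb in unirradiated WT cells. Over all genes the WT means were 62.7% and 64.9% in the first 1 kb, 9.01% and 12.1% from 3 kb, and 2.37% and 3.83% from 16 kb.

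**Figure D3:**
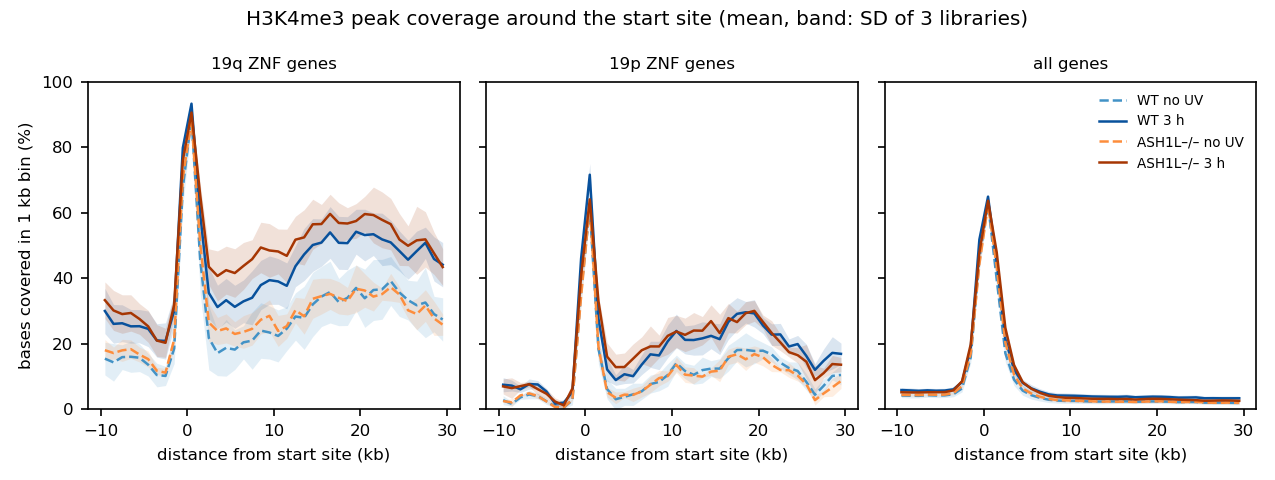
Bases under H3K4me3 peaks (%) in 1 kb bins from 10 kb before to 30 kb after the start site, for WT and ASH1L–/– cells without UV (dashed) and at 3 h (solid); lines are means of 3 libraries and bands their SD. Member means are 88.9% in the first bin, 17.1% at 3 kb and 35.7% at 16 kb in unirradiated WT cells, and bins further in hold fewer genes.

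Within bodies, coverage was higher over the last exon than over the rest, and this exon carries the zinc finger array. Where last exons fall along the distance from the start site was not compared. Summed over members, last exons were covered over 39.9, 46.4 and 55.7% in the unirradiated WT libraries, and the rest of the bodies over 16.1, 18.7 and 29.5%. The last exon was above the rest within each of these libraries. At 3 h the means were 61.5 ± 6.45% against 36.1 ± 6.71% in WT and 67.9 ± 5.0% against 41.5 ± 6.82% in ASH1L–/– cells. Gene by gene, 120 of 148 members (81.1%) had a higher covered share in the last exon than in the rest, as had 68 of 81 ZNF genes on 19p (84.0%) and 2013 of 13101 genes in all (15.4%). Summed over all genes, last exons were also above the rest in each of the 18 libraries. Their means in unirradiated WT cells were 4.043% and 2.003%, beside 47.33% and 21.45% in members. ZNF genes of other chromosomes had 28.69% and 6.991%. Gene by gene, however, 11073 of the 13101 genes had a lower share in the last exon. The pattern was therefore shared with 19p, and the summed excess with genes at large, so it is not particular to 19q.

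Sub-clusters differed in this contrast between exon and rest. Sub-cluster D had the widest gap in unirradiated WT cells, with 50.5% in last exons and 15.9% elsewhere, and B had 64.5% and 31.9%. In F the values were 34.3% and 24.2%, and in E 46.1% and 32.1%. Among single genes, ZNF331, an imprinted gene first known from rearrangements in thyroid adenomas, had 73.2% of its last exon and 9.60% of the rest covered as means of the 18 libraries. ZNF888 had 26.5% and 1.62%, and ZNF816 95.0% and 54.4%. ZNF134 was covered throughout, with 99.0% and 100%.

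**Figure D4:**
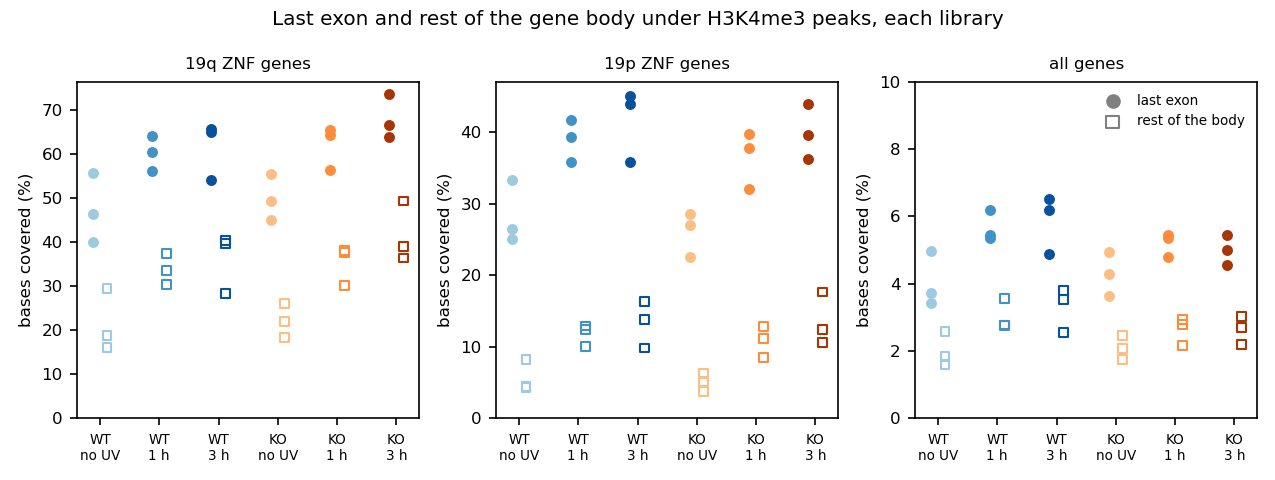
Bases under H3K4me3 peaks (%) in last exons (filled circles) and in the rest of gene bodies (open squares), one point per library and group, for 19q members, 19p ZNF genes and all genes; the y axes differ between panels. In members the last exons lie above the rest in each of the 18 libraries.

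Covered promoters of many members were longer after UV in the lists as deposited, though not after scaling. In WT 69 of 161 tested members (42.9%) passed as higher and none as lower, where 30.5% of all 14745 tested promoters passed as higher (limma, Benjamini-Hochberg adjusted p under 0.05 over all windows). In ASH1L–/– cells 51 passed as higher and 1 as lower, where 24.0% and 0.258% of all promoters did. The median change was 0.35 kb in WT and 0.296 kb in ASH1L–/– cells, against 0.203 and 0.174 kb over all promoters, and turned to −0.484 and −0.0826 kb when covered length was scaled. Scaled, 7 members passed as higher and 57 as lower in WT, beside 2.64% and 52.3% of all promoters. The WT count also rested on single unirradiated libraries, with 11 members without WT no UV replicate 2, 30 without replicate 1 and 104 without replicate 3. The ASH1L–/– count was 17 without ASH1L–/– no UV replicate 2 and 27 without replicate 1.

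By sub-cluster, 23 of 39 promoters passed as higher in D in WT, 13 of 26 in B, 16 of 43 in F, 6 of 23 in C, 5 of 16 in E and 3 of 5 in A. In ASH1L–/– cells the counts were 13 in D, 18 in B, 8 in F, 7 in C, 3 in E and 1 in A. Passing rises spanned 0.277 to 1.62 kb in WT and 0.188 to 2.06 kb in ASH1L–/– cells, and 28 promoters passed in both genotypes. Differences among sub-clusters were not tested.

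ZNF404 had the largest rise in both genotypes. The start site used for it, 43883964 on the minus strand, lies inside the gene, which extends to 43901385. Its promoter was covered over 1.17, 1.09 and 3.12 kb in unirradiated WT libraries, over 3.40, 3.36 and 3.69 kb at 1 h and over 3.43, 2.63 and 4.0 kb at 3 h. In ASH1L–/– cells the values were 1.23, 0.219 and 2.25 kb, then 2.79, 3.42 and 3.65 kb, then 3.68, 3.26 and 2.93 kb. The groups did not overlap in ASH1L–/– cells, whereas in WT the highest unirradiated library lay above the lowest irradiated one. The rise was 1.62 ± 0.457 kb in WT (SE, adjusted p = 0.0196, limma) and 2.06 ± 0.457 kb in ASH1L–/– cells (adjusted p = 0.008), and both passed after scaling (0.844 and 1.99 kb). Its highest summit lay 2244 bp downstream of the start site, outside the usual position and beyond the CG-poor sequence printed above. The last exon of ZNF404 was covered over 83.8% and the rest of its body over 86.6%, as means of the 18 libraries. Whether the window held a promoter peak or body coverage reaching into it was not tested. The WT call was lost without WT no UV replicate 1 or replicate 2 (1.31 and 1.27 kb, adjusted p = 0.084 and 0.142), and the ASH1L–/– call without ASH1L–/– no UV replicate 2 (1.55 kb, adjusted p = 0.0575).

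ZNF350 (ZBRK1), a KRAB repressor that binds BRCA1 and acts on GADD45A, lies at chr19:51964340-51986856 in sub-cluster D. Its promoter was covered over 2.33, 2.25 and 2.70 kb in unirradiated WT libraries and over 3.25 to 3.86 kb in the 6 irradiated ones, without overlap. It rose by 1.10 ± 0.144 kb in WT (adjusted p = 0.000385, limma), and the value in ASH1L–/– cells was 0.403 kb (adjusted p = 0.0526). Its body rose by 6.60 ± 1.60 kb in WT and 5.41 ± 1.60 kb in ASH1L–/– cells (adjusted p = 0.0143 and 0.048). The neighbouring ZNF649 was covered over 2.42, 2.55 and 2.52 kb without UV and over 3.37 to 3.72 kb after it in WT, a rise of 1.05 ± 0.126 kb (adjusted p = 0.000232). In ASH1L–/– cells ZNF649 rose by 0.750 ± 0.126 kb (adjusted p = 0.00202). Scaled, the WT promoter differences were 0.0829 kb for ZNF350 (adjusted p = 0.821) and 0.00198 kb for ZNF649, so neither passed.

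ZNF154 and ZNF418, both in sub-cluster F, had short promoters that grew in WT. ZNF154, often methylated in tumours, was covered over 0.279, 0 and 0.78 kb without UV and over 0.99 to 1.75 kb in the 6 irradiated WT libraries, a rise of 1.09 ± 0.258 kb (adjusted p = 0.009, limma) that passed after scaling as well (0.83 kb). ZNF418 was covered over 0, 0.378 and 1.43 kb without UV and over 1.25 to 2.35 kb after it, a rise of 1.26 ± 0.445 kb (adjusted p = 0.0446). The ZNF418 call was lost in 11 of 18 fits that left out 1 library, at an adjusted p of up to 0.188, and after scaling. ZNF154 lost its call without WT no UV replicate 2 (0.918 kb, adjusted p = 0.0759).

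In ASH1L–/– cells the largest promoter rises after ZNF404 belonged to sub-clusters B and F. ZNF875 was covered over 1.23, 1.12 and 2.16 kb without UV and over 2.3 to 3.23 kb after it, a rise of 1.23 ± 0.406 kb (adjusted p = 0.0399, limma) that was lost in 7 of 18 fits without 1 library. The start site used for ZNF875, 37334649, also lies inside the gene, which begins at 37312837. ZNF570 rose by 0.938 ± 0.136 kb (adjusted p = 0.00093), ZNF814 by 0.900 ± 0.203 kb (adjusted p = 0.00843) and ZNF568 by 0.895 ± 0.187 kb (adjusted p = 0.00588), and these 3 calls held without any single library and were lost after scaling. ZNF570 shares its window with ZNF569, and ZNF568 with ZNF829.

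Among other members with known roles, ZNF274 rose at its promoter by 0.691 kb in WT and 0.616 kb in ASH1L–/– cells (adjusted p = 0.00827 and 0.0154, limma). ZNF473 (ZFP100), a factor of histone pre-mRNA processing whose window also holds VRK3, rose by 0.453 kb in WT (adjusted p = 0.0485). ZNF420 (Apak), an inhibitor of p53, rose by 0.445 kb (adjusted p = 0.0292), ZNF671 by 0.401 kb (adjusted p = 0.0207) and ZNF296 by 0.416 kb (adjusted p = 0.0375) in WT. ZNF175 differed by 0.297 kb (adjusted p = 0.113), ZNF507 by 0.132 kb (adjusted p = 0.104) and ZNF224, a KRAB repressor of aldolase A, by 0.118 kb (adjusted p = 0.409), and none of these 3 passed. Scaled values and fits without 1 library are not given for the genes of this paragraph. Over all tested members, 7 promoters passed as higher and 57 as lower in WT after scaling.

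Gene bodies of members were also covered further after UV in both genotypes. Some member bodies overlap, so in the counts below the same peaks can count for more than 1 member. In WT 55 of 145 tested members (37.9%) passed as higher and none as lower, where 19% of all 12402 tested bodies did. In ASH1L–/– cells 60 (41.4%) passed as higher, where 8.20% of all bodies did. Medians were 2.52 kb in WT and 3.39 kb in ASH1L–/– cells against 0.429 and 0.262 kb over all bodies, and 36 members passed in both genotypes. These are absolute lengths, and member bodies started from a higher covered share. In WT the mean share went from 25.41% without UV to 39.97% at 3 h in members, and from 2.067% to 3.376% over all bodies. In ASH1L–/– cells it went from 26.35% to 45.57% and from 2.16% to 2.72%. Whether members rose more in proportion to their starting share was not tested. Scaled to an equal total, the medians kept their sign at 0.621 and 2.51 kb, and the counts became 4 in WT and 67 in ASH1L–/– cells, beside 3.23% and 8.38% of all bodies. The WT count fell to 3 without WT no UV replicate 1 or replicate 2, and was 24, 18, 15 and 19 without WT 1 h replicates 2 and 3 and WT 3 h replicates 1 and 3. The ASH1L–/– count was 20 and 15 without ASH1L–/– no UV replicates 1 and 2.

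Sub-clusters B and D held most of these bodies. In WT 20 of 39 passed in D, 13 of 25 in B, 14 of 37 in F, 3 of 9 in E, 2 of 5 in A and 1 of 21 in C. In ASH1L–/– cells 27 passed in D, 16 in B, 12 in F, 4 in C, 1 in A and 0 in E. Median changes were highest in B, at 5.41 kb in WT and 8.51 kb in ASH1L–/– cells, and lowest in C for WT, at 1.06 kb. After scaling the ASH1L–/– counts were 20 in B, 27 in D and 14 in F. Scaled medians in WT were between −0.585 kb in A and 1.24 kb in D. On 19p 33 of 78 bodies passed in WT and 31 in ASH1L–/– cells, and of the interspersed genes 14 and 11 of 58 passed.

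Every irradiated library lay above every unirradiated one for 39 member bodies in WT and 75 in ASH1L–/– cells, whereas 12% and 10.3% of all bodies did so. For promoters the numbers were 45 and 50 members, beside 16.4% and 18.1% of all promoters. No body lay the other way round in any member. Among tested bodies the 3 h mean was above the 1 h mean in 60.7% of members and 54.3% of all genes in WT, and in 85.5% and 46.5% in ASH1L–/– cells.

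Long genes of sub-cluster B had some of the largest body rises. The bodies of ZNF850 and ZNF567 overlap, as do those of ZNF345 and ZNF829, so the same peaks can count for both genes of a pair. ZNF850 (chr19:36714383-36772825) was covered over 32.4, 35.3 and 59.2% of its body without UV in WT, 62.0, 68.1 and 69.0% at 1 h and 77.0, 56.9 and 75.2% at 3 h. Its ASH1L–/– values were 32.9, 26.8 and 36.2%, then 49.6, 61.6 and 59.3%, then 76.2, 60.7 and 64.1%, with no overlap between irradiated and unirradiated libraries. It rose by 14.5 ± 3.72 kb in WT and 16.9 ± 3.72 kb in ASH1L–/– cells (adjusted p = 0.0182 and 0.0157, limma). With peaks of at least 5-fold enrichment alone the WT difference was −0.506 kb. Leaving out WT no UV replicate 1 or 2 ended the WT call, as did leaving out ASH1L–/– no UV replicate 1 or 2 in ASH1L–/– cells (11.7, 12.5, 17.2 and 15.5 kb).

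ZNF569 rose by 13.7 ± 4.44 kb in WT and 16.7 ± 4.44 kb in ASH1L–/– cells (adjusted p = 0.0443 and 0.0335, limma), calls that were lost in 12 and 9 of 18 fits without 1 library. ZNF345 was covered over 29.7, 25.3 and 36.6% without UV in ASH1L–/– cells, 39.8, 64.8 and 59.8% at 1 h and 89.0, 60.1 and 63.2% at 3 h. This was the largest body rise of the family in that genotype, 19.4 ± 4.90 kb (adjusted p = 0.027), lost in 5 of 18 such fits, and the WT difference of 12 kb did not pass (adjusted p = 0.0956). ZNF529 went from 47.0, 40.8 and 54.2% to 68.4 to 95.7% in ASH1L–/– cells, a rise of 13.6 ± 2.40 kb (adjusted p = 0.00716) that no left-out library ended. ZNF146 and ZNF260, short zinc finger proteins without a KRAB domain, rose there by 6.29 and 6.21 kb (adjusted p = 0.00929 and 0.0143).

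ZNF544 in sub-cluster F was covered over 55.9, 42.3 and 77.2% without UV in WT and over 77.5 to 92.2% after it. It rose by 13.5 ± 3.54 kb in WT and 14.9 ± 3.54 kb in ASH1L–/– cells (adjusted p = 0.0196 and 0.0208, limma), and its body overlaps another gene. ZNF585A in sub-cluster B rose by 13 ± 3.60 kb in WT (adjusted p = 0.0252) and overlaps ZNF420, which rose by 9.72 kb in WT and 12 kb in ASH1L–/– cells (adjusted p = 0.0435 and 0.0305). ZNF331 rose by 2.49 and 2.54 kb (adjusted p = 0.0316 and 0.0444), ZNF473 by 3.46 kb in WT (adjusted p = 0.0441) and ZNF45 by 4.92 kb in WT (adjusted p = 0.0469). Scaled WT differences of ZNF850, ZNF569, ZNF544 and ZNF585A were 4.49, 2.02, 2.48 and 0.93 kb, none of which passed. Scaled values of ZNF420, ZNF331, ZNF473, ZNF45, ZNF146 and ZNF260 are not given.

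Few members responded differently to UV in WT and ASH1L–/– cells by a direct test of that difference. At promoters 0 members passed with a larger change in ASH1L–/– cells and 3 with a smaller one, where 0.190% and 0.868% of all promoters did, and 12.4% of members and 12.5% of all promoters had an unadjusted p under 0.05. In bodies 3 passed with a larger and 1 with a smaller change, where 0.290% and 3.52% of all bodies did. The median difference over members was −0.0638 kb at promoters, which became 0.451 kb after scaling, and 0.482 kb in bodies, which became 1.92 kb. After scaling 18 bodies passed with a larger change in ASH1L–/– cells, beside 1.41% of all bodies. The median in bodies turned to −0.238 kb without WT no UV replicate 3 and −0.0473 kb without ASH1L–/– no UV replicate 2, and that of promoters to 0.0103 kb without WT no UV replicate 2.

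ZNF132 (chr19:58432814-58440153, sub-cluster F), methylated in several cancers, was the member whose promoter moved in opposite directions. It was covered over 0.684, 0.221 and 1.3 kb in unirradiated WT libraries, 1.07, 1.64 and 1.45 kb at 1 h and 2.27, 2.15 and 1.74 kb at 3 h. In ASH1L–/– cells it was covered over 1.15, 0.744 and 1.90 kb without UV, 0.714, 0.259 and 0.408 kb at 1 h, and had no peak in any of the 3 libraries at 3 h. All irradiated ASH1L–/– libraries thus lay below all unirradiated ones, while the WT groups overlapped. The promoter rose by 0.986 ± 0.240 kb in WT (adjusted p = 0.0105, limma) and fell by 1.04 ± 0.240 kb in ASH1L–/– cells (adjusted p = 0.00952). The difference of −2.02 ± 0.339 kb passed (adjusted p = 0.0124), as it did in each of the 18 fits without 1 library and after scaling (−1.82 kb). Its promoter sequence, printed above, was not unusual for the family in its number of CG.

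**Figure D5:**
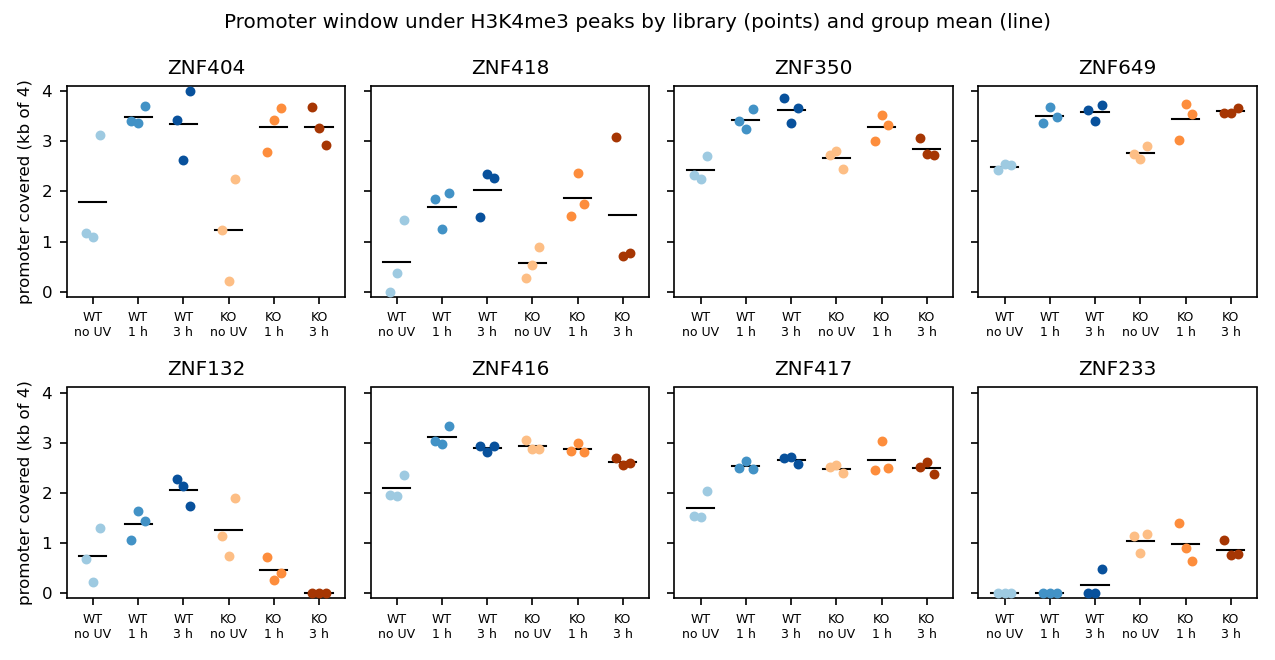
Covered length (kb of the 4 kb window) of the promoters of ZNF404, ZNF418, ZNF350, ZNF649, ZNF132, ZNF416, ZNF417 and ZNF233 in each library; points are libraries, lines group means, and KO is ASH1L–/–. ZNF132 climbs to 1.74 to 2.27 kb at 3 h in WT and is at 0 in the 3 ASH1L–/– libraries at 3 h.

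ZNF416 and ZNF417, both in sub-cluster F, differed between genotypes already without UV. ZNF416 was covered over 1.97, 1.94 and 2.36 kb in unirradiated WT and 3.05, 2.87 and 2.87 kb in unirradiated ASH1L–/– libraries. After UV it was covered over 2.81 to 3.34 kb in WT and 2.55 to 2.99 kb in ASH1L–/– cells. The unirradiated difference was 0.838 ± 0.113 kb (adjusted p = 0.000613, limma), the WT rise 0.921 kb (adjusted p = 0.000109) and the difference of the UV changes −1.10 ± 0.138 kb (adjusted p = 0.00204). ZNF417 was covered over 1.55, 1.51 and 2.04 kb in unirradiated WT and 2.51, 2.56 and 2.39 kb in unirradiated ASH1L–/– libraries, a difference of 0.786 ± 0.149 kb (adjusted p = 0.00813). Its UV changes differed by −0.801 ± 0.183 kb (adjusted p = 0.048), a call lost in 16 of 18 fits without 1 library. None of these 4 differences between genotypes passed after scaling, with adjusted p between 0.127 and 0.382, and the sizes were −0.7 and 0.932 kb for ZNF416 and −0.488 and 0.899 kb for ZNF417.

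ZNF814 and ZNF587 overlap in sub-cluster F (chr19:57848731-57889074 on the minus and chr19:57849859-57865117 on the plus strand), so the same peaks count for both. ZNF814 was covered over 5.19, 5.04 and 11.5% without UV and 10.4 to 17% after it in WT. Without ASH1L it went from 7.62, 7.47 and 14% to 26.6, 32.2 and 39.6% at 1 h and 57.7, 41.8 and 39.6% at 3 h, without overlap. Its body rose by 10.5 ± 1.31 kb in ASH1L–/– cells (adjusted p = 0.00219, limma), the WT difference was 2.71 kb (adjusted p = 0.148), and the changes differed by 7.80 ± 1.86 kb (adjusted p = 0.0308). For ZNF587 the changes differed by 3.19 ± 0.647 kb (adjusted p = 0.0143). Both passed after scaling, with 8.73 and 3.4 kb. The ZNF814 call was lost in 8 of 18 fits without 1 library and that of ZNF587 in 1, without WT no UV replicate 1 (3.14 kb, adjusted p = 0.0513).

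ZNF888, in sub-cluster D, had 0, 0 and 2.0% of its body covered without UV in WT and 0 to 1.71% after it. In ASH1L–/– cells it had 7.45, 6.18 and 7.64%, then 9.69, 17.5 and 14.1%, then 22.6, 14.5 and 20.7%. The changes differed by 1.55 ± 0.405 kb (adjusted p = 0.0478, limma), a call that passed after scaling (1.39 kb) and was lost in 16 of 18 fits without 1 library. Genes duplicated in tandem can share near-identical stretches, and reads of low mapping quality had been removed before peak calling. The part of this filter in the values was not tested.

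ZNF536 (chr19:30224891-30713586), at 488.7 kb the longest member, stands alone at the inner end of the arm. It was covered over 3.41, 4.32 and 5.11% of its body without UV in WT, 8.45, 6.61 and 8.97% at 1 h and 11.5, 8.45 and 10.6% at 3 h, all above the unirradiated libraries. Its ASH1L–/– values were 4.38, 4.90 and 5.40%, then 3.89, 5.23 and 3.97%, then 5.94, 3.58 and 3.84%, which overlapped. The body rose by 16.4 ± 2.62 kb in WT (adjusted p = 0.00159, limma), the ASH1L–/– difference was −1.63 kb (adjusted p = 0.726), and the changes differed by −18.0 ± 3.71 kb (adjusted p = 0.0153). Scaled, the WT rise was 8.76 kb and the difference −13.2 kb, both past the threshold. The difference lost its call without WT no UV replicate 1 (−16.5 kb), WT no UV replicate 2 or ASH1L–/– no UV replicate 3, with adjusted p up to 0.0681. Unlike the sub-cluster members, ZNF536 had no promoter peak at the start site used. That site, 30372384, lies well inside the gene, and the body was counted from there. Windows at other start sites of ZNF536 were not examined.

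Without UV few members differed between genotypes. At promoters 5 passed as higher and 1 as lower in ASH1L–/– cells, where 2.88% and 1.11% of all promoters did, and in bodies 2 passed as higher and 0 as lower, where 0.556% passed as higher. An unadjusted p under 0.05 was found for 18% of member promoters and 19.3% of all promoters, and for 13.8% of member bodies and 10.4% of all bodies. After scaling, 2 promoters passed as higher and 2 as lower, beside 0.855% and 0.97% of all promoters, and 13 bodies as higher and 2 as lower, beside 3.66% and 1.14% of all bodies. Sub-cluster B stood out in direction among the sub-clusters, since 2 of its 25 bodies had a positive difference. Its median was −2.74 kb (scaled −3.31 kb), with no body passing as deposited and 2 as lower after scaling. Bodies of 19p ZNF genes also leaned lower, with 19 of 78 positive and a median of −0.129 kb. In F, D and C the medians were 0.864, 0.616 and 0.99 kb.

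ZNF233 (chr19:44259880-44275317, sub-cluster C) had no promoter peak in 8 of 9 WT libraries, the remaining one, at 3 h, being covered over 0.487 kb. In ASH1L–/– cells it was covered over 1.14, 0.807 and 1.18 kb without UV and 0.635 to 1.40 kb after it. The unirradiated difference was 1.04 ± 0.170 kb (adjusted p = 0.00306, limma), held in each fit without 1 library and after scaling (1.22 kb), and was lost with peaks of a −log10 q of at least 1.3 (0.473 kb, adjusted p = 0.257). The window met the filter of at least 3 covered libraries only through ASH1L–/– libraries, the genotype in which it was higher. The p-values for ZNF233 are therefore not independent of the filter, and the values serve as a description. ZNF607 in sub-cluster B was covered over 1.95, 2.28 and 2.27 kb in WT and 1.55, 1.17 and 0.997 kb in ASH1L–/– cells without UV, a difference of −0.931 ± 0.222 kb (adjusted p = 0.0297) that passed after scaling (−1.16 kb). ZNF304 and ZNF320 were higher by 0.485 ± 0.122 and 0.441 ± 0.114 kb (adjusted p = 0.037 and 0.0434), calls lost in 5 and 10 of 18 fits without 1 library and after scaling.

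Of bodies, ZNF816 (chr19:52949379-52962911, sub-cluster D) was covered over 25.8, 26.2 and 31.7% in unirradiated WT and 76.8, 67.5 and 84.4% in unirradiated ASH1L–/– libraries. This difference of 5.53 ± 0.577 kb passed (adjusted p = 0.000486, limma), in each fit without 1 library and after scaling (6.37 kb). With peaks of at least 5-fold enrichment the difference was −0.317 kb. ZNF548 in sub-cluster F was covered over 19.8, 20.8 and 34.0% in WT and 54.0, 60.1 and 65.6% in ASH1L–/– libraries, a difference of 2.45 ± 0.441 kb (adjusted p = 0.0211) that was lost in 3 of 18 fits without 1 library and passed after scaling (2.87 kb). ZNF304 had 0, 0 and 13.2% against 52.2, 26.5 and 76.6%, and its 3.14 ± 0.762 kb did not pass (adjusted p = 0.0849), though it did after scaling.

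XPC showed a separate picture over the same bodies. It was mapped as broad peaks in lists of which 17 of 19 held exactly 500000 peaks, so covered length there is bounded by the length of a list. In WT, members were covered over 8.72 ± 1.97% without UV (SD, n = 4), 6.51 ± 1.38% after 1 h and 9.41 ± 3.19% after 3 h (n = 3 each). For ASH1L–/– cells the shares were 13.6 ± 2.51, 11.8 ± 2.58 and 13.2 ± 7.37%. All genes had 13.5, 9.69 and 11.8% in WT and 12.4, 10.5 and 11.9% in ASH1L–/– cells, and 19p ZNF genes 1.72 to 2.85%. Interspersed genes of the sub-clusters had 8.43% in WT and 14.6% in ASH1L–/– cells without UV. Sub-cluster A was covered over 18.4% in unirradiated WT and 14.5% in ASH1L–/– cells, B over 11.3 and 11.4%, C over 6.27 and 13.8%, D over 5.40 and 13.2%, E over 6.44 and 16.5% and F over 5.85 and 13.3%.

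No member passed for XPC after UV in either genotype by limma, where 0.0116% of all 17180 bodies passed as higher and 0.675% as lower in WT, and 0.00% and 0.00582% in ASH1L–/– cells. An unadjusted p under 0.05 was found for 8 members in WT (5.03%, against 11.6% of all bodies) and 29 in ASH1L–/– cells (18.2%, against 4.81%). Among the 3 members with the smallest p in each genotype were ZNF283, with −3.81 ± 1.09 kb in WT (adjusted p = 0.134), and ZNF45, with −2.74 ± 0.715 kb in ASH1L–/– cells (adjusted p = 0.405). ZNF404, also among them, with −1.43 ± 0.240 kb in ASH1L–/– cells (adjusted p = 0.0619), passed when windows covered in 1 or 2 libraries were kept in the fit (adjusted p = 0.0272).

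Without UV 13 of 159 members passed as higher in ASH1L–/– cells and 0 as lower (8.18%), where 0.815% of all bodies passed as higher and 2.46% as lower. The median difference was 1.03 kb over members, with 132 of 159 positive, and −0.28 kb over all bodies. Interspersed genes of the sub-clusters had a median of 0.979 kb with 55 of 70 positive, close to the members, and 1 of them passed as higher. The 13 were ZNF233, ZNF404 and ZNF45 in sub-cluster C, ZNF610, ZNF677, ZNF766 and ZNF841 in D, ZNF471 in E, and ZNF551, ZNF587, ZNF587B, ZNF773 and ZNF776 in F, while A and B held none. Those beyond the 3 largest differences among the 13 are named after their values were seen. ZNF610 was covered by XPC over 3.15, 10.5, 1.94 and 1.35% in unirradiated WT and 19.3, 19 and 18.1% in ASH1L–/– libraries, a difference of 4.29 ± 0.927 kb (adjusted p = 0.00956, limma) that held in each fit without 1 library. ZNF766 had 3.06, 2.74, 11.5 and 10.1% against 38.5, 19 and 17%, and ZNF551 3.21, 3.42, 5.71 and 2.98% against 21.7, 13.9 and 17.5%. Their differences were 4.23 ± 1.04 and 4.05 ± 0.961 kb (adjusted p = 0.0250 and 0.0196), and the groups of these 3 genes did not overlap. The count of 13 was 12 after scaling, 7 with a replicate block, 3 and 4 without WT no UV replicates 1 and 2, and 4 and 7 without ASH1L–/– no UV replicates 1 and 3. ZNF233 was also the promoter that carried H3K4me3 in ASH1L–/– cells and in a single WT library.

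The machinery that KRAB zinc finger proteins use was covered in these cells. Of a list of 26 genes for TRIM28, SETDB1 and their partners, 26 had an H3K4me3 promoter peak in all 18 libraries. In WT 6 promoters and 9 bodies of the 26 passed as higher after UV, and in ASH1L–/– cells 7 promoters and 4 bodies. For promoters these counts lie near or below the shares of all promoters given above (30.5% in WT and 24.0% in ASH1L–/– cells). For bodies they lie above the shares of all bodies (19% in WT and 8.20% in ASH1L–/– cells). Whether the list differs from all genes was not tested. TRIM28 itself rose at its promoter by 0.691 kb in WT and 0.674 kb in ASH1L–/– cells (adjusted p = 0.00355 and 0.00463, limma), and SETDB1 rose in its body by 1.54 and 1.89 kb (adjusted p = 0.00444 and 0.00476). No promoter or body of the list passed for a genotype difference without UV. For the difference of the UV changes no promoter passed and 1 body did, that of the histone demethylase gene KDM4B (−3.55 kb, adjusted p = 0.0396), named after its value was seen. Of 10 mesenchymal and osteoblast genes 7 had a promoter peak in all libraries and COL1A2, TWIST1 and ALPL had none, and of 11 genes of other cell types 3 had a peak in all libraries and 5 in none.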

How the data were processed

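H3K4me3 and XPC were mapped by chromatin immunoprecipitation sequencing, and 37 peak lists of single libraries, out of 61 samples, were used. Single-end reads of 100 bp were trimmed by the authors (Trim Galore 0.6.5), mapped to hg38 lacking chromosome Y with BWA 0.7.17-r1188, and stripped of mapping qualities under 30, duplicates and blacklisted regions (SAMtools 1.7, Picard, bedtools 2.29.2). The authors then ran MACS2 2.2.7.1 (p cutoff of 0.01) against input for H3K4me3, as narrow peaks, and against XPC-deficient cells for XPC, as broad peaks. Each deposited list gives positions (other units), fold enrichment over the control (a ratio), and −log10 p and −log10 q per peak. Peak lists hold no read depth, and the mapped reads that the study states per library were not used here. H3K4me3 lists held 72984 to 142688 peaks.

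From these, covered bases were computed per window for 19970 genes (GENCODE 44, Python 3.11.15, numpy 2.4.6, pandas 2.3.3): start site ± 2 kb, and gene bodies of genes longer than 4 kb. A single start site was used per gene, that of its MANE Select or Ensembl canonical transcript, and it can lie inside the gene. A window entered the fit when at least 3 libraries had a peak in it. Group means were fitted with limma 3.58.1 (R 4.3.3, moderated variances with trend, robust, two-sided), both irradiated times averaged, 1 fit per antibody and window, with Benjamini-Hochberg adjustment over all windows of a contrast at 0.05. The fit was first run on simulated windows with independent values. These had no bounds, no uncovered windows and no library-wide shift in covered length, so the run cannot speak to those features of the lists. The labels call the libraries biological replicates, and the study's legends call its H3K4me3 experiments independent. How cultures were separated is not said, so p-values rest on the spread between these samples within groups. Alternatives were scaling to an equal total, peaks of at least 5-fold or of −log10 q of at least 1.3, a ± 1 kb window, no filter, a replicate block, and each library left out.

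The family, its lists and tests were chosen with earlier results of these data known. Genes named were the 5 largest passing changes each way per contrast (3 for XPC, or the 3 smallest p where fewer than 3 passed), the 5 longest and shortest covered promoters and bodies, and 18 genes in any case; some of these are not printed. Promoter sequences are from RefSeq (GRCh38.p14), matched by symbol.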

Additional observations from a re-analysis of the deposited data

Results flagged for a closer look

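In 7 members the UV change differed between genotypes by limma's test of that difference. Each value is the change in ASH1L–/– cells minus the change in WT. At promoters it was −2.02 kb for ZNF132, −1.1 kb for ZNF416 and −0.801 kb for ZNF417. In gene bodies it was −18.0 kb for ZNF536, 1.55 kb for ZNF888, 3.19 kb for ZNF587 and 7.8 kb for ZNF814. ZNF814 and ZNF587 share an overlapping stretch of DNA, and ZNF416, ZNF417, ZNF587, ZNF814 and ZNF132 lie in the same sub-cluster. ZNF132 and ZNF416 passed in each of the 18 fits that left out 1 library. ZNF416 and ZNF417 did not pass once covered length was scaled to an equal total (−0.7 and −0.488 kb).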

How the results depend on the processing

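Counts below are members passed as higher unless called lower. After scaling to an equal total, promoters numbered 7 and 57 lower in WT after UV, 3 in ASH1L–/– cells after UV, 2 and 1 lower for the difference of the UV changes, and 2 and 2 lower for genotypes without UV, with promoter medians of −0.484, −0.0826 and 0.451 kb for the first 3. Bodies then numbered 4 in WT, 18 for the difference of the UV changes, and 13 and 2 lower without UV. With peaks of at least 5-fold enrichment, promoters numbered 11 in WT, 25 and 0 lower in ASH1L–/– cells and 3 and 4 lower without UV, bodies 16, 25, 0 lower for the difference and 0 without UV, and ZNF850 in WT (−0.506 kb) and ZNF816 (−0.317 kb) turned sign. With −log10 q of at least 1.3, 0 promoters were lower without UV and 1 body had a larger change in ASH1L–/– cells. In the ± 1 kb window promoters numbered 37 in WT, 22 in ASH1L–/– cells and 0 lower without UV. With windows covered in 1 or 2 libraries kept, 1 body was lower for XPC in ASH1L–/– cells after UV. The cause of these shifts was not tested. Without 1 library each, promoter counts ranged from 11 to 104 in WT, 17 to 60 in ASH1L–/– cells, 2 to 6 lower for the difference, and 3 to 15 and 0 to 1 lower without UV. Body counts ranged from 3 to 76, 15 to 70, 0 to 3 and 0 to 2 lower for the difference, and 1 to 3 without UV, and those for XPC from 3 to 15 without UV and 0 to 1 lower in ASH1L–/– cells after UV. The median difference of the UV changes ranged from −0.17 to 0.0103 kb at promoters (without WT no UV replicates 3 and 2), and from −0.238 to 1.05 kb in bodies (without WT no UV replicates 3 and 1), where it was −0.0473 kb without ASH1L–/– no UV replicate 2. Same-numbered libraries correlated at −0.11 to 0.29 at promoters, −0.74 to 0.91 in bodies and −0.61 to 0.72 for XPC. Their medians were 0.095, 0.34 and −0.0054, against −0.036, −0.18 and −0.017 for libraries of different numbers. For H3K4me3 the same-numbered medians were thus higher, with overlapping ranges, and the main fits used no block. A replicate block gave 79 and 59 promoters and 69 and 74 bodies in WT and ASH1L–/– cells after UV, and 7 bodies for XPC without UV. Over 46 results for named genes and 1073 refits, 872 stayed on their side of the threshold, 192 no longer passed it, 7 newly passed it and 2 turned sign.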
